A study of Mus musculus with 21 samples.

Results

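The Kv1 genes Kcna1 to Kcna6, which encode the channel-forming alpha subunits Kv1.1 to Kv1.6, and Kcnab1, Kcnab2 and Kcnab3, which encode the cytoplasmic beta subunits, were examined in the brains of mice given a peptide blocker of Kv1.3. They were taken by gene name, and all 9 were among the 16318 genes measured. The other Kv1 alpha genes, Kcna7 and Kcna10, were not analysed here. RNA-sequencing was performed on whole brains of 21 SAMP8 mice, a senescence-accelerated inbred strain used as a model of sporadic Alzheimer's disease. From 4 months of age, 9 mice (3 female, 6 male) received HsTX1[R14A], a scorpion toxin analog spelled HxTX1 in the sample titles, subcutaneously at 1 mg/kg every 2 days for 8 weeks. The 12 PBS-treated mice (6 female, 6 male) received phosphate-buffered saline, and all mice were 6 months old at the end. All groups were of the one strain, so no mouse without the SAMP8 background entered these comparisons. Each library came from 1 mouse and held between 14917174 and 47613792 estimated counts. The labels and the study's methods name different library kits, and neither was preferred here. Xist was at 261 CPM (counts scaled to library size) or more in every female and at 3.39 CPM or less in every male, which matched the labeled sex. The 10 neuron markers summed to between 5610 and 10000 CPM per mouse, so that neuronal mRNA was present in every sample labeled brain.

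Kv1 channels are assemblies of 4 alpha subunits, alike or mixed, which open on depolarization and let potassium out of the cell. In neurons, Kv1.1, Kv1.2 and Kv1.6 set the firing threshold at the axon initial segment, along the myelinated axon beside the node and at terminals, whereas Kv1.3 is known above all from T lymphocytes and activated microglia and is also found in some neurons. Beta subunits bind the intracellular face of the channel, assist its traffic to the membrane and, in the case of Kvbeta1, speed its inactivation.

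The pore is the site at which scorpion toxins of this kind bind, and its coding sequence is shown for the 6 alpha subunits. Each alpha subunit has its whole coding sequence in 1 exon. The stretches below are 90 coding bases each, read from the GENCODE transcripts of GRCm38, with the 18 bases that encode the potassium selectivity signature in capitals. Kcna3 lies at chr3:107037566-107037655 on the plus strand, Kcna1 at chr6:126642198-126642287 on the minus strand, Kcna2 at chr3:107105179-107105268 on the plus strand, Kcna4 at chr2:107296450-107296539 on the plus strand, Kcna5 at chr6:126533715-126533804 on the minus strand and Kcna6 at chr6:126738617-126738706 on the minus strand.
Kcna3: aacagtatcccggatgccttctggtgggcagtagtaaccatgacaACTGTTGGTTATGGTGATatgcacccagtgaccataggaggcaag
Kcna1: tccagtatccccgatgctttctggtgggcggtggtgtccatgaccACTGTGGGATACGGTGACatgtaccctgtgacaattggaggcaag
Kcna2: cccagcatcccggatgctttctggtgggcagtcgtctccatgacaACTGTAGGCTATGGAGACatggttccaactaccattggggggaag
Kcna4: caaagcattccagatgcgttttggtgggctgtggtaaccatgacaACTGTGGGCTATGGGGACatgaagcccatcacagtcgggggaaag
Kcna5: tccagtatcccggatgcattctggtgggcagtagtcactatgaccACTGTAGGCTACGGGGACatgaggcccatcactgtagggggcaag
Kcna6: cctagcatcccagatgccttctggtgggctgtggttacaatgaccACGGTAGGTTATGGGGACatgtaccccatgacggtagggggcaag
Against Kcna3, Kcna1 shared 73 of these 90 bases (81.1%), Kcna2, Kcna5 and Kcna6 shared 70 each (77.8%) and Kcna4 shared 67 (74.4%). Within the capitals, Kcna5 shared 13 of the 18 bases with Kcna3 and each of the other alpha subunits shared 14. The capitals encode the same amino acids in every alpha subunit, so the base differences there are silent. In the 27 bases after the capitals, which encode the outer mouth of the pore, Kcna1 shared 23 bases with Kcna3 and Kcna6 shared 21. Kcna2 and Kcna5 shared 18 each, and Kcna4 shared 17. All of these are counts of bases, silent changes included, and they do not rank the subunits by protein sequence or toxin binding. The genes also lie in clusters. Kcna3 and Kcna2 are neighbors on chromosome 3, with 63.1 kb between them, and Kcna5, Kcna1 and Kcna6 follow each other on chromosome 6 with gaps of 105.0 kb and 61.9 kb. The beta subunit genes carry coding sequence in 14 exons (Kcnab1 and Kcnab3) or 16 exons (Kcnab2).

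In the PBS-treated mice, the levels of the 9 genes covered a wide range when expressed as CPM per kilobase of the longest transcript. The order was Kcnab2, Kcna1, Kcnab1, Kcna2, Kcnab3, Kcna6, Kcna4, Kcna5 and Kcna3, from high to low. Kcnab2 was 2.09-fold above Kcna1, the next gene, and was higher in 12 of 12 mice (exact sign-flip permutation test within mice, two-sided, p = 0.000488, the smallest that 12 mice allow, adjusted p = 0.000976 over 8 neighboring pairs). Kcna1 and Kcnab1 did not differ beyond their spread, with a mean ratio of 1.00 (exact permutation p = 0.973). Kcna5 and Kcna3, at the bottom, did not differ beyond their spread either, with a mean ratio of 1.09 and Kcna5 above Kcna3 in 8 of 12 mice (exact permutation p = 0.471, adjusted p = 0.538). The remaining neighbors differed with adjusted p from 0.000976 to 0.0305 by the same exact test, and the ratio was largest between Kcna4 and Kcna5 (2.82-fold).

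**Figure D1:**
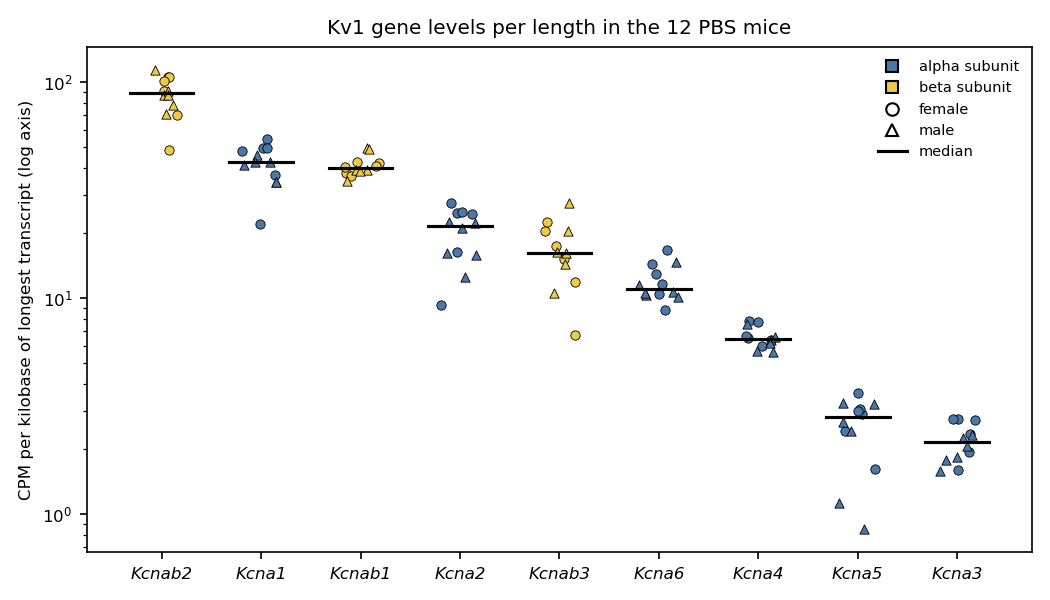
Level of each Kv1 gene in the 12 PBS-treated mice, as TMM-scaled CPM per kilobase of the longest annotated transcript on a log axis, with 1 point per mouse and a bar at the median. By their medians, the 3 beta subunits and Kcna1 and Kcna2 lie above Kcna6 and Kcna4, and Kcna5 and Kcna3 overlap at the bottom.

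Kcna1 made up the largest part of the alpha subunit mRNA on this per-length scale. Its share of the summed alpha level had a median of 49.4% in PBS-treated and 48.5% in HsTX1[R14A]-treated mice. Kcna2 followed with 23.5% and 24.9%, Kcna6 with 13.9% and 14.2% and Kcna4 with 7.94% and 6.85%. Kcna3, whose product is the target of the peptide, made up a median of 2.66% of the alpha level in PBS-treated and 2.56% in HsTX1[R14A]-treated mice, close to the 2.99% and 2.71% of Kcna5. The mean share of Kcna3 went the other way, at 2.63% (SD 0.673) with PBS and 2.9% (SD 0.965) with HsTX1[R14A]. Its share ran from 1.5% to 3.73% and from 1.58% to 4.14%, in that order. Among the beta subunits, Kcnab2 held 60.1% and 62.8%, Kcnab1 held 26.1% and 24.6%, and Kcnab3 held 10.7% and 13%. These shares depend on the transcript length chosen. With the union of exons in its place the order of the 9 genes was the same, but Kcna1 stood 1.66-fold above Kcnab1 (exact permutation, adjusted p = 0.0039), while Kcnab1 over Kcna2, 2.15-fold by the longest transcript, was 1.13-fold and held in 5 of 12 mice (adjusted p = 0.365), and Kcnab3 over Kcna6 was 1.21-fold (adjusted p = 0.0885). With coding length, Kcna2 stood above Kcna1 in 12 of 12 mice, Kcnab1 over Kcna2 was 1.01-fold (exact permutation, adjusted p = 0.911), and Kcna6 stood above Kcnab3 in 10 of 12. Kcna5 over Kcna3, 1.09-fold by the longest transcript and by the union of exons, was then 1.44-fold. It held in 9 of 12 mice (exact permutation, adjusted p = 0.0201), so whether these genes differed also depended on the length chosen. The longest transcript of Kcnab1, of 4382 bases, holds no coding sequence, so its level on this scale is uncertain.

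The question of the treatment comparison was whether the mRNA of the peptide's target and of its relatives differed after 8 weeks of dosing. In the model of all 21 mice with sex as a covariate (edgeR, FDR of at most 0.05), 3 of the 9 genes were called, Kcna3, Kcna2 and Kcna6, and all 3 were higher in HsTX1[R14A]-treated mice. Over all 16303 genes tested, 31.6% were called in either direction and 15.5% were called higher, so that the number of Kv1 genes called in either direction was close to the share in the whole table. Of the 9 genes, 8 had a higher estimate after HsTX1[R14A] and 1, Kcnab1, a lower one. The same 3 were called with limma/voom and with DESeq2, beside 31.9% and 37.7% of all genes. In edgeR the median log2 fold change of the 9 genes was 0.30, beside -0.01 over all genes tested. None of the genes separated the groups, since the values of the 2 groups overlapped for each of the 9. The share of all genes whose groups overlap was not counted, so this is a description of the 9 alone. In whole tissue, fewer cells of a type and less RNA per cell cannot be told apart.

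**Figure D2:**
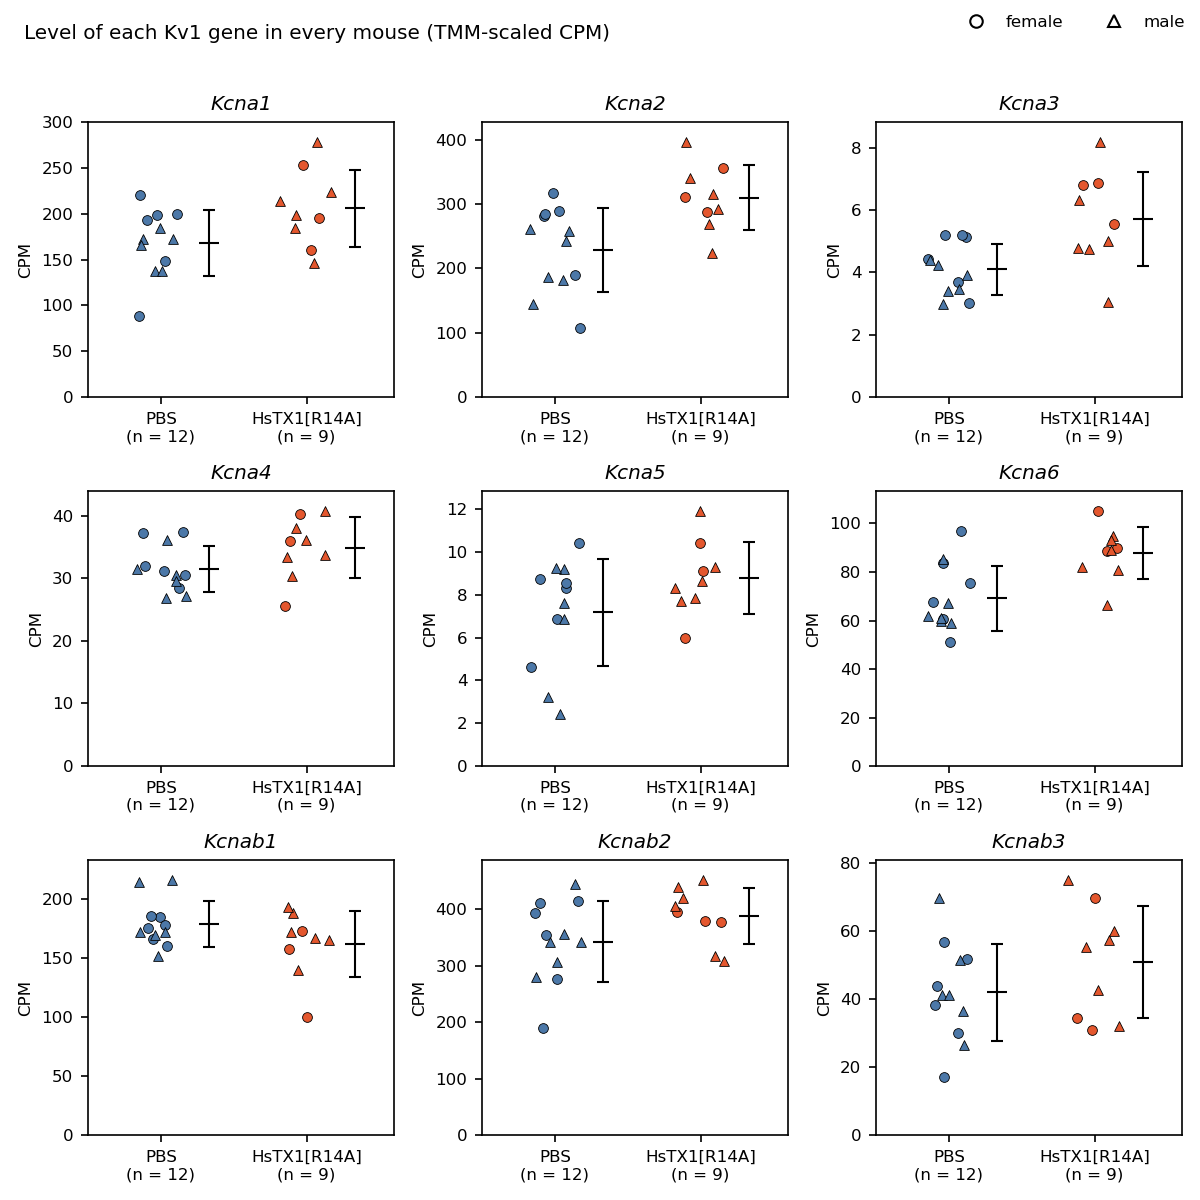
TMM-scaled CPM of each Kv1 gene in every mouse, by treatment (12 PBS, 9 HsTX1[R14A]), with females as circles and males as triangles, and the mean with 1 SD beside the points. Kcna3 shows 5 of the 9 HsTX1[R14A]-treated mice above the highest PBS-treated mouse, and the groups overlap for all 9 genes.

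Kcna3 (ENSMUSG00000047959, chr3:107036169-107038070, plus strand, a single exon of 1902 bases) was expressed at a low level. Its CPM in PBS-treated mice had a lowest value of 2.99 (male 101), a median of 4.09 and a highest value of 5.22 (female 73), with a mean of 4.10 ± 0.813 (SD, n = 12). In HsTX1[R14A]-treated mice the lowest value was 3.06 (male 89), the median 5.57 and the highest 8.18 (male 88), with a mean of 5.71 ± 1.51 (SD, n = 9). All 12 PBS-treated mice lay below the HsTX1[R14A] median, and 8 of the 9 HsTX1[R14A]-treated mice lay above the PBS median. Male 89 was the exception, near the bottom of the PBS range. These values rest on 52 to 338 estimated counts per library, far fewer than for most of the family. The level was 1.44-fold higher after HsTX1[R14A] (95% confidence interval 1.18 to 1.76; log2 fold change 0.53, SE 0.14, edgeR FDR = 0.018). It was called in each of the 21 models that left out 1 mouse, with log2 fold changes from 0.43 to 0.59 and edgeR FDR from 0.0129 to 0.0376. The call was lost with the length slope as covariate (0.45, edgeR FDR = 0.344) and with 1 surrogate variable (0.47, FDR = 0.0607). It was also lost within each of the 2 forms of library name alone (0.68, edgeR FDR = 0.0563, and 0.42, FDR = 0.855). These models are described with the library measures. An antisense gene, Gm27008, spans the locus on the other strand without exon overlap and was not analysed here.

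Kcna2 (ENSMUSG00000040724, chr3:107101146-107115005, plus strand) encodes Kv1.2, the partner of Kv1.1 in axons, and has a long transcript of 11582 bases. Among PBS-treated mice it ran from 107 CPM (female 103) through a median of 251 to 317 (female 85). After HsTX1[R14A] it ran from 224 (male 93) through 311 to 396 (male 81). The treated mice therefore reached higher and lacked the low values of the control group, in which 5 of 12 mice lay under the lowest treated mouse. Kcna2 was 1.38-fold higher (log2 fold change 0.47, SE 0.16, interval 0.14 to 0.80, edgeR FDR = 0.0335). This call was lost without PBS mouse 90 (edgeR FDR = 0.0653), PBS mouse 91 (0.0536), or HsTX1[R14A] mouse 98 (0.0631), 74 (0.0551), 88 (0.0537) or 81 (0.0645). In these fits the share of all genes called was also lower, from 14% to 26.4%, against 31.6% with all mice. The log2 fold change of Kcna2 stayed between 0.41 and 0.51 over all 21 models that left out 1 mouse. The call was also lost with length and GC trends removed, with the length slope as covariate and with 1 surrogate variable. The log2 fold changes were then 0.02 to 0.18 (edgeR FDR from 0.205 to 0.958). Further losses were without the sex term (0.44, edgeR FDR = 0.0519) and with the form of the library name as covariate (0.41, FDR = 0.0761). Within each name form alone it was lost as well (0.45, edgeR FDR = 0.138, and 0.30, FDR = 0.855).

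Kcna6 (ENSMUSG00000038077, chr6:126708329-126740674, minus strand) encodes Kv1.6, a neuronal alpha subunit that joins mixed channels. Its lowest, median and highest CPM were 51.2 (female 103), 64.5 and 97.1 (female 84) with PBS, and 66.5 (male 93), 88.9 and 105 (female 71) with HsTX1[R14A]. All 9 treated mice lay above the PBS median, and 6 of 12 PBS-treated mice lay below every treated mouse. The difference was 1.29-fold (interval 1.12 to 1.49; log2 fold change 0.37, SE 0.10, edgeR FDR = 0.0187), and it was called whichever single mouse was left out. The call was lost with length and GC trends removed (log2 fold change 0.09, edgeR FDR = 0.347), with the length slope as covariate (0.12, FDR = 0.567) and with 1 surrogate variable (0.22, FDR = 0.087), models described with the library measures. It was also lost within each form of library name alone (0.42, edgeR FDR = 0.0621, and 0.07, FDR = 0.905). Exons of Kcna6 overlap those of the antisense gene Gm26673, which averaged 74 counts per library against 721 to 4370 for Kcna6, and the strand setting of the quantification is not given in the sources used here.

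Kcna1 (ENSMUSG00000047976, chr6:126640397-126646384, minus strand) encodes Kv1.1, whose mutation causes episodic ataxia and seizures. It ranged from 88.6 (female 103) through a median of 172 to 220 CPM (female 104) in PBS-treated mice and from 146 (male 93) through 199 to 278 (male 81) in treated mice. Of the treated mice, 7 of 9 lay above the PBS median, and the estimate of 1.23-fold did not pass the threshold (log2 fold change 0.30, SE 0.14, interval 0.01 to 0.59, edgeR FDR = 0.0933). Without HsTX1[R14A] mouse 93 it did pass (log2 fold change 0.35, edgeR FDR = 0.0486), beside 40.6% of all genes.

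Kcna4 (ENSMUSG00000042604, chr2:107290639-107298502, plus strand) encodes Kv1.4, the alpha subunit that inactivates fast on its own. It varied little between mice, from 26.8 through 30.9 to 37.4 CPM with PBS and from 25.5 (female 71) through 35.9 to 40.7 with HsTX1[R14A]. Female 71 lay below every PBS-treated mouse and 3 treated mice lay above all of them. The log2 fold change was 0.15 (SE 0.08, edgeR FDR = 0.153), and it became 0.21 with an edgeR FDR of 0.0456 when HsTX1[R14A] mouse 71 was left out, beside 20.4% of all genes. Kcna5 (ENSMUSG00000045534, chr6:126532551-126535412, minus strand) encodes Kv1.5, best known from heart and vessels. It was the most variable alpha subunit in the control group, from 2.42 (male 82) through 7.98 to 10.4 CPM (female 103), against 6.0 (female 71) through 8.65 to 11.9 (male 88) with HsTX1[R14A]. The lowest values were all in PBS-treated mice, 3 of which lay below every treated mouse, and the estimate of 0.33 had a wide interval (-0.10 to 0.76 on the log2 scale, edgeR FDR = 0.213).

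None of the 3 beta subunits was called. Kcnab1 (ENSMUSG00000027827, chr3:65109384-65378223, plus strand), the subunit that confers inactivation, ran from 152 (male 82) through 174 to 216 CPM (male 90) with PBS and from 100 (female 71) through 167 to 193 (male 92) with HsTX1[R14A]. Only 2 of 9 treated mice lay above the PBS median and 2 lay below all PBS-treated mice, but the estimate of 0.887-fold did not pass (interval 0.776 to 1.01; log2 fold change -0.17, SE 0.09, edgeR FDR = 0.144). Kcnab2 (ENSMUSG00000028931, chr4:152390742-152477871, minus strand), the main beta subunit of axonal Kv1 channels, ran from 190 (female 103) through 349 to 445 CPM with PBS and from 308 (male 93) through 395 to 451 with HsTX1[R14A]. The groups shared most of their range apart from 4 low PBS-treated mice, and the log2 fold change was 0.18 (interval -0.08 to 0.43, edgeR FDR = 0.259). Kcnab3 (ENSMUSG00000018470, chr11:69326258-69333042, plus strand) ran from 17 (female 103) through 41.2 to 69.9 CPM with PBS and from 30.8 through 55.4 to 75.0 with HsTX1[R14A]. It was the most variable beta subunit in both groups, with coefficients of variation of 34.0% and 32.4%, and its log2 fold change was 0.24 (interval -0.20 to 0.67, edgeR FDR = 0.383). Exons of Kcnab1 and Kcnab3 overlap the antisense genes A330015K06Rik and Kcnab3os. The first averaged 21.3 counts per library and the second was not analysed here. Exons of Kcnab2 overlap those of Gm16334, a processed transcript on the same strand that was also not analysed here.

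The study gave some of its behavioral results by sex, so the treatment difference was also estimated by sex. No gene of 16303 was called for a treatment by sex interaction by edgeR or limma/voom (270 and 250 at an unadjusted p under 0.05). None of the 9 was at an unadjusted p under 0.05 with either. For Kcna3 the log2 fold change was 0.53 in females (PBS mean 4.45 ± 0.921 CPM, n = 6; HsTX1[R14A] mean 6.42 ± 0.733, n = 3) and also 0.53 in males (3.74 ± 0.550, n = 6; 5.36 ± 1.73, n = 6). The difference between the sexes was -0.01 with an interval from -0.62 to 0.61, which is wide enough to include differences as large as the effect itself. All 3 treated females exceeded every PBS-treated female for Kcna3, and how many of all genes separate the females in this way was not counted. Within either sex alone 0 of the 9 genes and 0 of all genes were called by edgeR and by limma/voom. At an unadjusted p under 0.05 by edgeR there were 3312 of 16209 genes in females, among them 1 of the 9 (Kcna3), and 4440 of 16102 in males, among them 5 of the 9 (Kcna1, Kcna2, Kcna3, Kcna4 and Kcna6), and limma/voom gave 3300 and 4401 genes with the same numbers of Kv1 genes. Without male 93, 3 of the 9 were called in males by edgeR (Kcna1, Kcna2 and Kcna6, each with an FDR of 0.0462), beside 11.6% of all genes. Between PBS-treated males and females, none of the 9 was called, beside 6 of 16039 genes (0.0374%). The male over female estimates ran from -0.29 (Kcna5, interval -0.97 to 0.39) to 0.17 (Kcnab3, interval -0.42 to 0.76) on the log2 scale.

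The lowest values of several genes came from the same mice. Female 103 was the lowest PBS-treated mouse for 5 of the 9 genes (Kcna1, Kcna2, Kcna6, Kcnab2 and Kcnab3), and male 93 the lowest HsTX1[R14A]-treated mouse for 4 (Kcna1, Kcna2, Kcna6 and Kcnab2). To describe this covariation, Pearson's r of log2 CPM was computed over the 21 mice after subtraction of the mean of each treatment and sex, with a permutation p within these groups (100000 resamples, two-sided, adjusted over 36 pairs). Of the 36 pairs, 9 had an adjusted p of at most 0.05. Kcna1 and Kcna2 had the highest r, 0.899 (permutation p = 1e-05, the smallest these resamples can give, adjusted p = 0.00036; Spearman's rho 0.86, permutation p = 2e-05), and r was 0.781 without the 2 mice farthest from the median. Library names took 2 forms in the table, and within the 15 mice of the more common form this r was 0.915. Kcna1 with Kcnab3 (0.878), Kcna1 with Kcnab2 (0.855), Kcna2 with Kcnab2 (0.855), Kcna2 with Kcnab3 (0.803), Kcnab2 with Kcnab3 (0.698), Kcna2 with Kcna6 (0.695) and Kcna1 with Kcna6 (0.656) followed. Their adjusted permutation p ran from 0.00054 to 0.0241, and their rho from 0.536 to 0.864. Within the more common name form r ran from 0.656 to 0.902 for these pairs. For Kcna1 with Kcna6, r fell to 0.37 without the 2 farthest mice, and the rho of both pairs with Kcna6 had an adjusted p above 0.05 (0.0558 and 0.0658). A separate pair was Kcna4 with Kcna5 (r 0.622, adjusted permutation p = 0.00762; rho 0.651; r 0.639 without the 2 farthest mice and 0.619 within the more common name form). Kcna3 had no pair that passed. Its r ran from -0.372 with Kcnab3 to 0.28 with Kcna5, and was -0.0459 with Kcna2, its neighbor on chromosome 3, and within the more common name form it ran from -0.194 to 0.521.

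**Figure D3:**
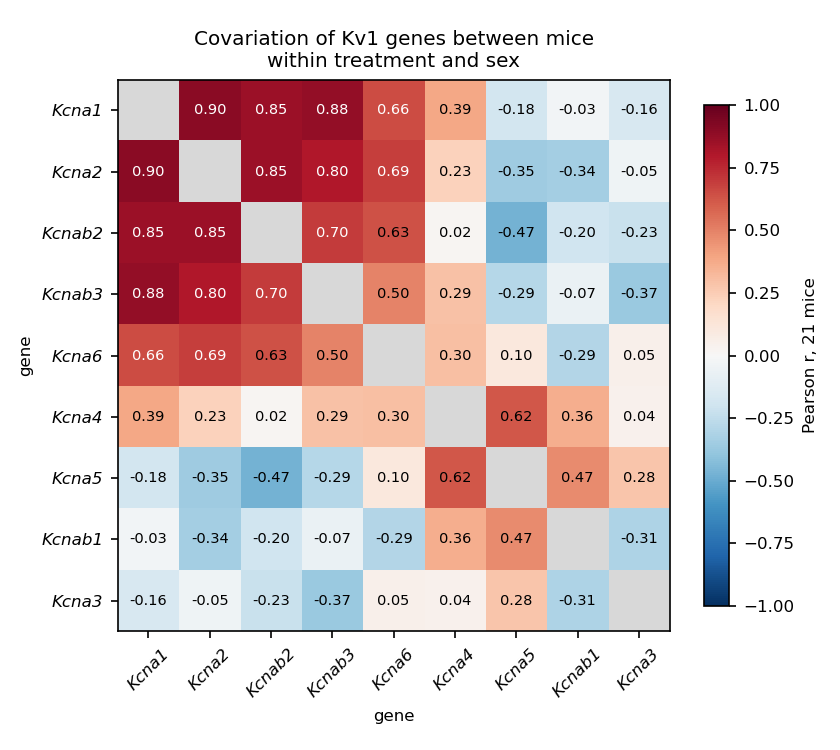
Pearson's r between Kv1 genes over 21 mice, from log2 CPM after subtraction of the treatment-by-sex group means, with red for positive and blue for negative values. Kcna1, Kcna2, Kcnab2, Kcnab3 and Kcna6 form the red block, whereas the row of Kcna3 runs from -0.372 to 0.28.

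The genes most like each member by the same measure, among 13293 ranked genes and over 21 mice, are given as a description. For Kcna1 they were Actn4 (r 0.979) and Kalrn (0.974), and for Kcna2 Mtus2 (0.981) and Scn8a (0.966), the sodium channel Nav1.6. For Kcna6 they were Clstn3 (0.925) and Slc27a4 (0.924), for Kcnab2 Adcy1 (0.949) and Gfod1 (0.940), and for Kcnab3 Cds1 (0.932) and Gfra2 (0.926). Kcna4 was most like Abi3bp (0.849) and Actn2 (0.842), Kcna5 most like Gpr149 (0.917) and Lppr1 (0.915), and Kcnab1 most like Ivns1abp (0.929) and Lrrc10b (0.893). Kcna3 had lower values, and its nearest genes were Pgm5 (0.827), Gm10052 (0.775), Wnt5a (0.753), a secreted Wnt ligand, Itih2 (0.750) and Slc13a4 (0.742), a sulfate transporter.

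Some measures of the libraries moved with these genes. In each library, the centered log2 level of each gene was fitted against the log2 of its longest transcript's length, and the resulting length slope is positive where long transcripts are relatively abundant. It was -0.076 ± 0.161 (SD, n = 12) in PBS-treated mice, with its lowest values in female 103 (-0.384) and male 90 (-0.337), and 0.102 ± 0.119 (n = 9) in HsTX1[R14A]-treated mice, with its lowest value in male 93 (-0.142). Within the 12 PBS-treated mice, where treatment plays no part, the slope was related to Kcna1 (r 0.862, permutation p = 0.0002, adjusted p = 0.0018; rho 0.86, p = 0.00062), Kcna2 (r 0.857, permutation p = 0.00057, adjusted p = 0.00308; rho 0.79, p = 0.00341), Kcnab2 (r 0.839, permutation p = 0.00045, adjusted p = 0.00304; rho 0.671, p = 0.0199) and Kcna6 (r 0.814, permutation p = 0.00141, adjusted p = 0.00609; rho 0.874, p = 0.00031), with adjustment over 27 relations. Without PBS mice 103 and 90, r was 0.725, 0.576, 0.636 and 0.850, in that order, and only that of Kcna6 still passed (permutation, adjusted p = 0.0951, 0.228, 0.16 and 0.0266). For Kcna3, r was 0.349 (permutation p = 0.266, adjusted p = 0.342; rho 0.343, p = 0.272), and the others did not pass. Within the 10 PBS-treated mice of the more common name form, r with the slope was 0.849 for Kcna1, 0.842 for Kcna2, 0.831 for Kcnab2, 0.818 for Kcna6 and 0.563 for Kcna3.

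**Figure D4:**
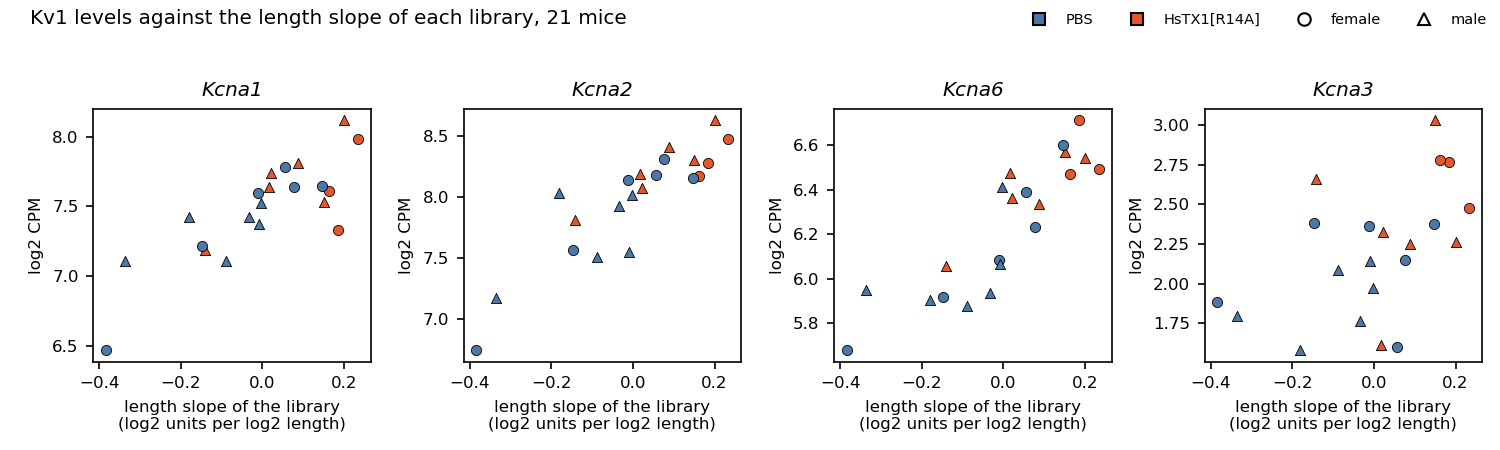
log2 CPM of Kcna1, Kcna2, Kcna6 and Kcna3 against the length slope of each library, in log2 units per log2 of transcript length, for 12 PBS-treated (blue) and 9 HsTX1[R14A]-treated (red) mice. In PBS-treated mice r was 0.862, 0.857, 0.814 and 0.349, in that order, and the HsTX1[R14A]-treated mice lie mostly at higher slopes.

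When the length slope was entered as a covariate, 0 of the 9 genes and 0 of 16303 genes were called by edgeR, with 1 and 1865 at an unadjusted p under 0.05. The log2 fold change of Kcna2 was then 0.02 (edgeR FDR = 0.958), that of Kcna6 0.12 (0.567) and that of Kcna1 -0.07 (0.839), whereas that of Kcna3 was 0.45 (0.344). When each library's trends on transcript length and GC content were removed instead, 16% of 16224 genes were called and 1 of the 9, Kcna3 (log2 fold change 0.43, edgeR FDR = 0.0404), while Kcna2 (0.18, FDR = 0.205) and Kcna6 (0.09, FDR = 0.347) were not. With PBS mice 103 and 90 left out together, an alternative chosen after seeing the data, the same 3 genes were called with log2 fold changes of 0.50 (Kcna3), 0.36 (Kcna2) and 0.33 (Kcna6) and edgeR FDR of 0.0306, 0.041 and 0.0288, beside 17.7% of all genes. The form of the library name was unevenly spread over the groups, with 10 PBS-treated and 5 HsTX1[R14A]-treated mice in the more common form and 2 and 4 in the other. In the more common form alone, the log2 fold changes were 0.68 for Kcna3 (edgeR FDR = 0.0563), 0.45 for Kcna2 (0.138) and 0.42 for Kcna6 (0.0621), and in the other form 0.42, 0.30 and 0.07 (FDR from 0.855 to 0.905), with 0 genes called in either (5797 and 532 at an unadjusted p under 0.05). With 1 surrogate variable in the model 6.77% of genes were called and 0 of the 9 (Kcna3 0.47, edgeR FDR = 0.0607), with 2 of the 9 and 4216 genes at an unadjusted p under 0.05. With the name form as a covariate, 12.3% of genes were called, Kcna3 and Kcna6 among them and Kcna2 not (0.41, edgeR FDR = 0.0761). Whether the length slope or the name form had a part in the differences was not tested beyond these models.

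**Figure D5:**
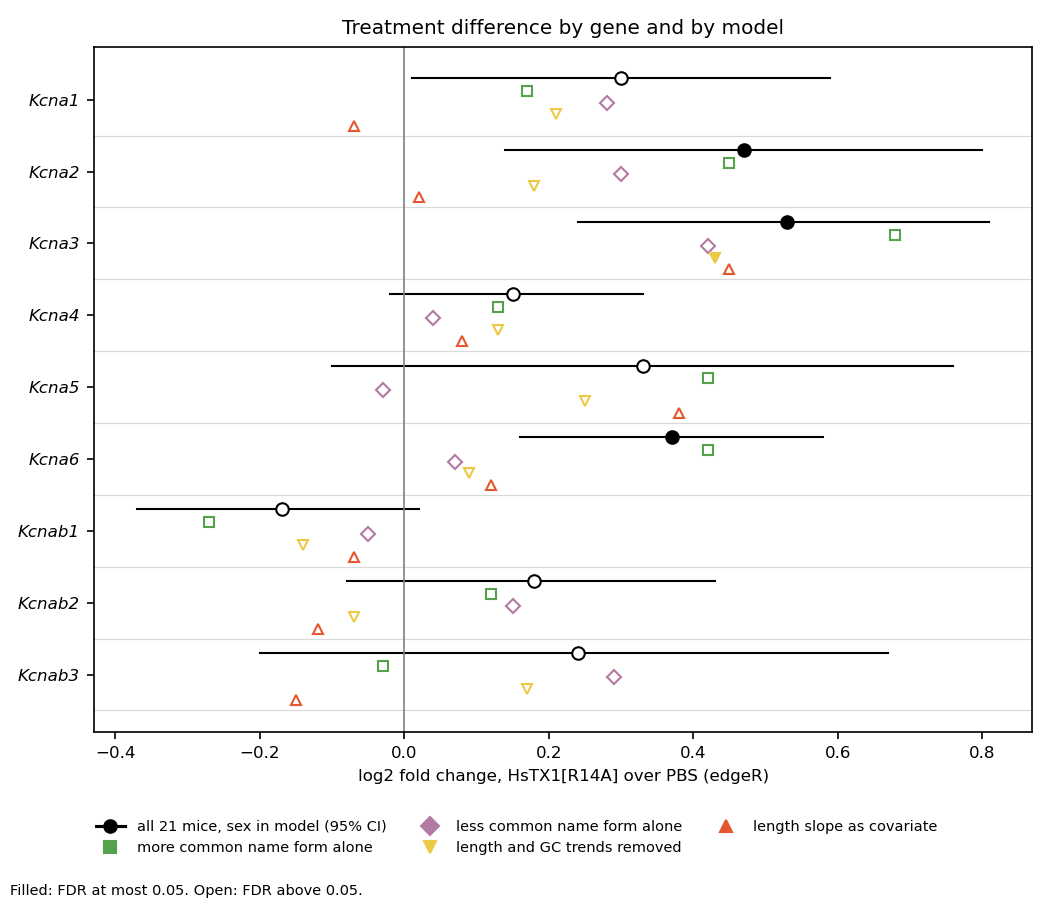
log2 fold change of each Kv1 gene, HsTX1[R14A] over PBS, in the model of all 21 mice with its 95% confidence interval (black) and in 4 alternatives (colored), with filled symbols for an FDR of at most 0.05. Kcna3 lies between 0.42 and 0.68 in all of them, though called in only 1 alternative, while Kcna2 lies at 0.02 and Kcna1 at -0.07 with the length slope as covariate.

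Cell type markers were set beside the genes, since Kv1.3 is known from microglia and Kv1.1, Kv1.2 and Kv1.6 from neurons. Of 14 microglia markers, 6 were called lower and none higher in HsTX1[R14A]-treated mice (edgeR, median log2 fold change -0.30, beside 16.1% of all genes called lower), and their summed level ran from 492 to 706 CPM with PBS and from 429 to 615 CPM with HsTX1[R14A]. Kcna3 and the called microglia markers thus differed between the groups in opposite directions. In PBS-treated mice the microglia score, the mean centered log2 level of these markers, had an r of -0.0684 with Kcna3 (permutation p = 0.831, adjusted p = 0.935; rho -0.112, p = 0.731; r 0.160 without the 2 farthest mice and -0.0949 within the more common name form). By Pearson's r, Kcna2 was the one gene of the 9 whose relation to this score passed (r -0.782, permutation p = 0.00236, adjusted p = 0.00796; rho -0.86, p = 0.00063; r -0.693 without the 2 farthest mice, then with an adjusted permutation p of 0.117, and -0.811 within the more common name form). Kcna1 passed by rho (-0.797, permutation p = 0.00283, adjusted p = 0.0127) but not by r (-0.577, permutation p = 0.0463, adjusted p = 0.108; r -0.523 without the 2 farthest mice and -0.614 within the more common name form). Of 10 T and B lymphocyte markers only Cd4 and Trac were measured in the table, neither was called, and the other 8 were not analysed here. The 10 neuron markers had 2 members called higher, beside 15.5% of all genes, and none lower (5610 to 8640 CPM with PBS, 6940 to 10000 CPM with HsTX1[R14A]). In PBS-treated mice the neuron score was related to Kcna1 (r 0.937, permutation p = 3e-05, adjusted p = 0.00081; rho 0.916, p = 7e-05) and Kcna2 (r 0.876, permutation p = 0.00013, adjusted p = 0.00175; rho 0.853, p = 0.00081). The relation also passed for Kcna6 (r 0.798, rho 0.783), Kcnab2 (0.790, 0.678) and Kcnab3 (0.789, 0.762), with adjusted permutation p of r from 0.00609 to 0.0091, but not for Kcna3 (r -0.0114, permutation p = 0.973; rho -0.00699, p = 0.991). Without the 2 mice farthest from the median score, r was 0.851 for Kcna1, 0.808 for Kcna2, 0.721 for Kcna6, 0.478 for Kcnab2 and 0.522 for Kcnab3, of which only Kcna1 still passed (permutation, adjusted p = 0.0266, against 0.0504 for Kcna2 and 0.0951 to 0.257 for the others), and within the more common name form it ran from 0.715 to 0.978 for these 5 genes and was 0.399 for Kcna3. The neuron score itself was -0.095 ± 0.192 (n = 12) with PBS and 0.126 ± 0.146 (n = 9) with HsTX1[R14A]. The part of cell composition in the differences was not tested.

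Other cell types were recorded beside these. Beside the 16.1% of all genes called lower, of 8 astrocyte markers 4 were called lower (3330 to 4990 CPM with PBS, 3340 to 5040 CPM with HsTX1[R14A]), and of 9 oligodendrocyte markers 3 were called lower (4510 to 6860 and 3400 to 5060 CPM). Among 8 endothelial markers 1 was called higher, beside 15.5% of all genes (59.7 to 134 CPM with PBS and 75.7 to 150 CPM with HsTX1[R14A]). A further list held 7 interneuron genes (Pvalb, Gad1, Erbb4, Kcnc1, Tac1, Sst and Vip), not all of them particular to parvalbumin or cerebellar basket cells. Of these 7, 2 were called higher and 1 lower (706 to 1030 CPM with PBS and 851 to 1150 CPM with HsTX1[R14A]). Choroid plexus markers, 7 of 7 measured and none called by edgeR, were the most uneven between brains, from 69.5 to 1130 CPM with PBS and from 59.1 to 837 CPM with HsTX1[R14A]. With the length slope as covariate no marker of any of these lists was called by edgeR.

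Proteins that hold Kv1 channels in place on the axon were examined as a list of 18, of which 17 were in the table. Of these, 8 were called higher and none lower after HsTX1[R14A] (edgeR, against 15.5% called higher over all genes), with a median log2 fold change of 0.31. With limma/voom 7 were called higher and none lower, against 16.2% called higher over all genes. With the length slope as covariate 0 of 17 were called by edgeR and the median was -0.02. Cntnap2 encodes Caspr2, which clusters Kv1 channels beside the node of Ranvier. It ran from 90.5 through 117 to 146 CPM with PBS and from 121 through 147 to 159 CPM with HsTX1[R14A], and all 9 treated mice lay above the PBS median (log2 fold change 0.29, SE 0.07, edgeR FDR = 0.017). Cntn2, the contactin partner of Caspr2, had a log2 fold change of 0.53 (SE 0.20, edgeR FDR = 0.0481). Adam22, a membrane protein of the Kv1 complex that binds LGI1, had 0.41 (SE 0.12, edgeR FDR = 0.0201), and Ank3, the ankyrin of the axon initial segment and node, had 0.41 (SE 0.14, edgeR FDR = 0.0325). Lgi1, the secreted ligand of Adam22, had 0.04 (SE 0.07, edgeR FDR = 0.619), and the scaffolds Dlg2 and Dlg4 had 0.14 each (edgeR FDR = 0.212 and 0.403). In other potassium channel families, 5 of 11 Kv2 and silent subunit genes and 5 of 11 Kv3, Kv4 and KChIP genes were called higher and none lower, with medians of 0.37 and 0.23, and with the length slope as covariate 0 of either list were called and both medians were 0.02.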

How the data were processed

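Whole-brain RNA of 21 mice was sequenced with 1 library each. Per the study's methods and the submitters' processing notes, reads were aligned to GRCm38 with STAR and quantified with Salmon, and the authors deposited estimated counts per gene (16318 genes), not normalized. Its other per-sample columns (53, of which 37 were CPM and 16 were counts of other libraries) and the authors' own fold changes, p-values and FDR were not used. Most estimated counts (90.5%) were whole to within 0.01, and rounding came before any test. Members and gene lists were chosen with earlier results of these data known. Groups and sex came from the labels. Per the study's methods, treatment was randomized within cages, but the labels used here do not give the cage of each mouse. No model therefore has a cage term, and the mice were treated as independent. The p-values of the group comparisons set a difference against the spread between these mice.

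After filterByExpr, 16303 genes entered TMM scaling and the quasi-likelihood test of edgeR 4.0.16 in R 4.3.3, with terms for sex and treatment, Benjamini-Hochberg adjustment over all genes and an FDR threshold of 0.05. Genes named were the 9 members, 7 fixed partners, and the genes most like each member (5 for Kcna3, 2 for the others) among those whose log2 CPM (prior count 2) averaged 1 or more. Lengths came from GENCODE for GRCm38 (16224 genes). Exact or permutation tests used SciPy 1.17.1. The 48 pairs of mice of equal treatment and sex had mean chi-squares per gene of 7.58 to 288, so no pair agreed within sampling noise. Alternatives were limma/voom 3.58.1, DESeq2 1.42.0, RLE scaling, other filters, no sex term, quality weights, 1 surrogate variable (sva 3.50.0), loess trends on length and GC content (span 0.5) removed, the length slope or name form as covariate, either name form by itself, and leave-one-out fits.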

Additional observations from a re-analysis of the deposited data

Results flagged for a closer look

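Kcna6 in PBS-treated males held 1 value far from the others. Male 102 was at 85.3 CPM, while the remaining 5 males lay between 58.8 and 67.1 CPM, and the gap to the nearest made up 0.686 of the group's range against a 95% critical value of 0.625 for 6 samples. Of 36 combinations of gene and group examined this was the only one past its limit, and chance puts about 1 group in 20 past it.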

How the results depend on the processing

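The count of 3 called genes was also obtained with limma/voom, DESeq2, RLE scaling, both other filters and quality weights, beside 5139 to 6145 of all genes. It was 2 without the sex term (Kcna2 lost, FDR 0.0519), beside 2984 of all genes, and 2 with the name form as covariate, beside 1999. It was 1 with length and GC trends removed, beside 2595, and 0 with 1 surrogate variable (Kcna3 lost, FDR 0.0607), beside 1104. With the length slope as covariate and in each name form alone it was 0, beside 0 of all genes. Leaving out single mice gave 2 to 4 genes, beside 14% to 40.6% of all genes. In males the count was 0, beside 0 of all genes. With single mice left out it was 0 to 3, beside 0 to 1879 of all genes. The number of partners called, 8 in the main model, was 8 with RLE scaling, 7 with limma/voom and 0 with the length slope. Relations past the threshold fell from 10 to 2 without the 2 farthest mice (Kcna6 with the slope, Kcna1 with the neuron score). The cause of these changes was not tested.

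Uncalled estimates changed sign as follows. With the surrogate variable Kcnab2 was -0.01 and Kcnab3 -0.04. With length and GC trends removed Kcnab2 was -0.07. With the slope as covariate Kcna1 was -0.07, Kcnab2 -0.12 and Kcnab3 -0.15. Kcnab3 was -0.03 in the more common name form and Kcna5 -0.03 in the other. In females the slope gave Kcna1 -0.33, Kcna2 -0.26, Kcna4 -0.04, Kcnab2 -0.30 and Kcnab3 -0.52, and in males Kcnab1 0.05. The interaction of Kcnab2 was -0.01 with RLE and -0.06 with limma/voom, and with the slope that of Kcna3 was 0.02 and of Kcna6 0.05. With single mice left out, interactions ran from -0.01 to 0.31 (Kcna1), -0.18 to 0.11 (Kcna3), -0.12 to 0.07 (Kcna6), -0.03 to 0.35 (Kcnab1), -0.07 to 0.13 (Kcnab2) and -0.12 to 0.53 (Kcnab3). Female estimates ran from -0.10 to 0.21 (Kcna4), -0.07 to 0.30 (Kcna5) and -0.28 to 0.39 (Kcnab3), and the PBS sex difference from -0.09 to 0.10 (Kcnab2) and 0.00 to 0.31 (Kcnab3). No paired analysis was possible because the groups share no mouse numbers and the labels used here do not give the cage of each mouse, within which treatment was randomized. Depth limits Kcna3 and Kcna5 most, at 52 to 510 counts per library.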
